A study of Mus musculus with 19 samples.

Results

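Complement and blood clotting proteins are made mainly by hepatocytes and secreted into plasma, and 39 of their genes are described here in mouse liver. The genes were matched by symbol in the deposited count table, where each of the 39 had exactly 1 row among the 55421 genes listed. Of the 39, 19 belong to complement and 20 to clotting and fibrinolysis. They were taken as a gene family, not picked by a measured value, although earlier results of these data were known when the family was proposed.

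The study asked how forced expression of the AP-1 dimer of c-Jun and Fra-2 leads to liver cancer, and poly(A) RNA of 19 liver pieces from 15 male C57BL/6 mice was sequenced. Mutants carry a transgene for the c-Jun and Fra-2 dimer that was switched on by taking away doxycycline at 3 weeks of age, and control littermates had the same doxycycline schedule. At 2 months after induction there were 6 controls and 3 mutants. At 9 months there were 3 controls and 3 mutants, and each mutant gave 1 macroscopically tumour-free piece and visible tumour tissue, with 2 tumours from mutant 1 and 1 from each of the others. The 2 tumours of mutant 1 were summed for the comparisons and means, so n counts animals there. No source used here names the promoter or the cell type that drives the transgene, and mutants and controls differ in nothing else that the labels name.

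Complement is a chain of proteases that is started by antibodies, by lectins that bind microbial sugars or by slow turnover of C3, and it ends in a pore built from C5 to C9. Clotting is another protease chain that leads to thrombin, which turns fibrinogen into fibrin, while plasmin, made from plasminogen, later dissolves it. Both chains are held back by circulating inhibitors, many of them serpins from the same liver cells.

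Each library held between 14294611 and 22062341 counts. Fosl2, which encodes Fra-2, was at 8.38 to 19.9 CPM (the count relative to the TMM-scaled library size) in all 9 control animals and at 590 to 937 in every mutant sample. Jun was at 10.47 to 40.5 CPM in controls other than 9-month control 1, where it reached 387, and at 413 to 786 CPM in mutant tissue. The 8 hepatocyte markers summed to 142000 to 172000 CPM in controls and to 61800 to 106000 CPM in mutant tissue, with none at 0. The 2-month controls 1 to 3 stood apart from controls 4 to 6: their ranges did not overlap for 21 of 38 complement and clotting genes with a mean over 5 CPM (55.3%), against 2026 of 9396 of all such genes (21.6%). The 2-month and the 9-month libraries came from separate sequencing runs, so age and run cannot be told apart. In bulk tissue, fewer cells of a type and less RNA per cell cannot be told apart either.

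At 2 months, 33 of the 38 complement and clotting genes with enough counts to be tested passed an adjusted p of 0.05, with 26 lower and 7 higher in mutants, against 42.7% of all 13773 genes tested. Every adjusted p comes from edgeR's quasi-likelihood test with Benjamini-Hochberg adjustment over all genes tested in that comparison. The median log2 change of the 38 was -0.59, beside 0.01 over all genes, of which 20.4% were lower and 22.3% higher. In 9-month tumour-free tissue 18 of 39 were lower and 3 higher than in controls, against 34.9% of all genes called in either direction, with a median of -0.52 beside -0.01. In tumours 6 of 39 were lower and none higher, against 25.1% of all genes, with a median of -0.54 beside 0.01. The number called in tumours was 13 with DESeq2, beside 31.2% of all genes, and 22 in a single fit over all 5 groups, beside 43.6%. At an unadjusted p under 0.05 edgeR found 14, and the share of all genes at that threshold was not computed. Leaving out mutant 1 raised the number called in tumours to 10, beside 21.9% of all genes. Leaving out tumour-free piece 2 lowered the tumour-free count to 13, beside 22.9%. Of the 8 hepatocyte markers 6 fell at 2 months, 4 fell and 1 rose in tumour-free tissue, and 4 fell in tumours, and their part in the falls of the family was not tested.

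Scaling by library size alone, without TMM, raised the median of all genes to 0.29 at 2 months, 0.42 in tumour-free tissue and 0.48 in tumours. Under that scaling the split became 9 higher and 20 lower at 2 months, 11 higher and 8 lower in tumour-free tissue, and 2 higher and 4 lower in tumours. Over all genes it was 5445 higher and 1562 lower of 13773 at 2 months, 5706 and 1178 of 14352 in tumour-free tissue, and 4664 and 818 of 14332 in tumours. No called member changed direction under any alternative that was run. Against 2-month controls 1 to 3 alone 5 were higher and 26 lower, beside 31.3% of all genes called, and against controls 4 to 6 alone 7 were higher and 23 lower, beside 38.3%.

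**Figure D1:**
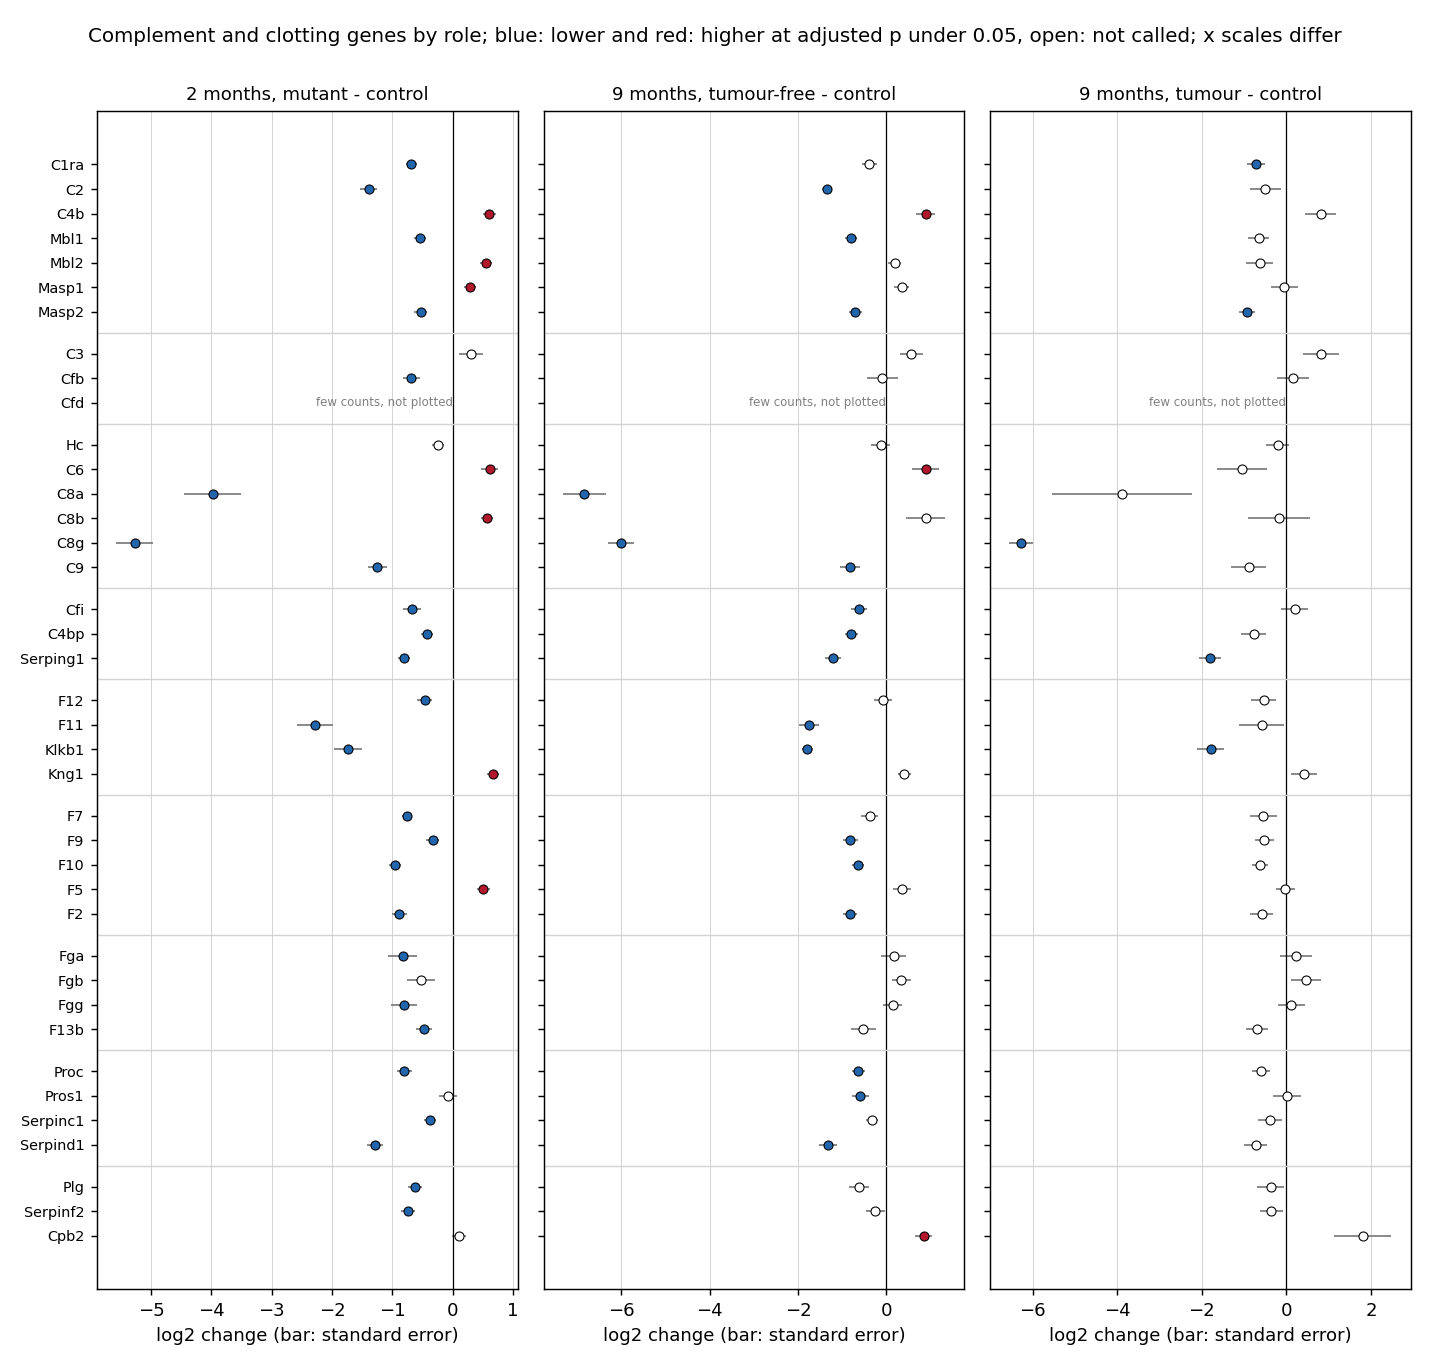
Log2 change (x axis, different scale in each panel, bars are standard errors) of each complement and clotting gene but Cfd by role, in mutants at 2 months, tumour-free tissue at 9 months and tumours at 9 months, each against its controls. Cfd had few counts and is not plotted, although it was called lower in both 9-month comparisons. Filled points passed an adjusted p of 0.05; at 2 months 26 are lower (blue) and 7 higher (red), and C8a and C8g lie furthest to the left.

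The 3 genes of complement component C8 gave the widest contrast of the family. C8 joins the pore as a complex of an alpha, a beta and a gamma chain, which are encoded by C8a, C8b and C8g. C8a and C8g fell many-fold in mutant liver, while C8b, the neighbour of C8a on chromosome 4, rose at 2 months. C8b (chr4:104766317-104804548, plus strand) and C8a (chr4:104815679-104876398, minus strand) lie with their 3′ ends 11130 bases apart, and C8g lies on another chromosome (chr2:25498651-25501719, minus strand; GRCm38, GENCODE M21). The 300 bases around each start (250 before and 50 from the start on, RefSeq, GRCm38.p6) are shown because these genes of 1 complex moved in opposite directions; no capitals stand in them, since none of the 4 motifs searched below was found.
C8a (chr4:104876349-104876648, minus strand): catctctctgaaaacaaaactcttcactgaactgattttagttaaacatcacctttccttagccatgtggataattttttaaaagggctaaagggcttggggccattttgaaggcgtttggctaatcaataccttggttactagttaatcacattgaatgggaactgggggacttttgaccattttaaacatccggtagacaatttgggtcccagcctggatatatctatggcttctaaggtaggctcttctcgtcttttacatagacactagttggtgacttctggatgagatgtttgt
C8b (chr4:104766067-104766366, plus strand): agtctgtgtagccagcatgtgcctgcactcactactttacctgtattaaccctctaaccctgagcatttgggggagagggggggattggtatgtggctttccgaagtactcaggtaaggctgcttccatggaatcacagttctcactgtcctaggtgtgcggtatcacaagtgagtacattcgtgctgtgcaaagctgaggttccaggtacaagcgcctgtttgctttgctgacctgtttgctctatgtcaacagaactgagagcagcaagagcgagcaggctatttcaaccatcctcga
C8g (chr2:25501670-25501969, minus strand): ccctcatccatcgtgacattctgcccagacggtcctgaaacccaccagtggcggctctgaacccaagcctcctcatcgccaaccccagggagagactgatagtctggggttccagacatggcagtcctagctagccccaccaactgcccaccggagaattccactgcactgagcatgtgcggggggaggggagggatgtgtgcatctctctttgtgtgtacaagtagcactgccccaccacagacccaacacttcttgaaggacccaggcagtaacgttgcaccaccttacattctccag

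C8g was at 11.1, 14.7 and 5.46 CPM in the 2-month mutants and at 345 to 462 CPM in their controls, with a median of 406. The groups were far apart, and the mean of 10.4 ± 4.65 CPM (SD, n = 3) was 38.6-fold below that of 403 ± 46.5 (n = 6). The fitted log2 change was -5.27 ± 0.31 (SE, adjusted p = 3.2e-07), the lowest of the family at that age. At 9 months C8g was at 459, 658 and 511 CPM in controls, at 6.59, 7.32 and 11.4 in tumour-free tissue, and at 6.23 and 7.30 in the tumours of mutant 1, 8.03 in that of mutant 2 and 6.497 in that of mutant 3. All 7 mutant pieces at 9 months were thus within the range of the 2-month mutants. The change was -6.01 ± 0.30 (adjusted p = 7.85e-06) in tumour-free tissue and -6.28 ± 0.28 (adjusted p = 1.3e-04) in tumours, and the call held under all alternatives in each of these comparisons.

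C8a was at 86.9, 24.7 and 45.9 CPM in the 2-month mutants and at 553, 588 and 640 CPM in controls 1 to 3 and 1070, 983 and 1154 in controls 4 to 6. Mutants stayed below both sets of controls, by 15.8-fold on the means (log2 change -3.98 ± 0.47, adjusted p = 8.29e-05). At 9 months controls were at 780, 372 and 495 CPM and tumour-free pieces at 2.68, 7.55 and 4.15, a fall of 115-fold (-6.84 ± 0.49, adjusted p = 4.37e-05). Tumours did not behave alike: the 2 tumours of mutant 1 were at 186 and 39.1 CPM, and those of mutants 2 and 3 at 2.11 and 1.62. All 4 were below the lowest control, but with this spread the change in tumours was not called (-3.89 ± 1.65, adjusted p = 0.133). Without mutant 1 it was called, at -8.18 in the remaining 2 tumour animals.

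C8a was also the single member called for a change of its mutant effect between ages, against 1.52% of all 14707 genes tested for that change. The 9-month tumour-free effect minus the 2-month effect was -2.85 ± 0.62 on the log2 scale (edgeR interaction, adjusted p = 0.0375). In this test edgeR gave 10 members an unadjusted p under 0.05, and the share of all genes at that threshold was not computed. The call of C8a was lost in 18 of 26 alternatives, among them leaving out 1 of many single libraries (2-month mutants 1 or 3, 2-month controls 1, 2, 3 or 5, 9-month controls 1 or 3, or tumour-free pieces 1 or 3), while the difference stayed between -3.34 and -2.18.

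C8b was at 662, 604 and 556 CPM in the 2-month mutants and at 357 to 449 CPM in controls, with a median of 426. The groups did not overlap, and C8b rose by 0.57 ± 0.10 on the log2 scale (adjusted p = 9.3e-04). That call was lost in the single fit over all 5 groups, with a replicate block and with a 1.5-fold minimum. At 9 months the controls were at 217, 53.0 and 138 CPM and tumour-free pieces at 250, 298 and 205. The 2 sets overlapped, and the change of 0.88 ± 0.44 was not called (adjusted p = 0.16). Tumours were at 173 and 181 CPM in mutant 1, 159 in mutant 2 and 30.1 in mutant 3, with a change of -0.17 ± 0.74 (adjusted p = 0.886). Per kilobase of exon, the C8a to C8b ratio within a library was 0.949 to 2.10 in 2-month controls, 0.0286 to 0.092 in 2-month mutants, 2.51 to 4.92 in 9-month controls and 0.00751 to 0.0177 in tumour-free tissue. In tumours it was 0.75 and 0.151 in mutant 1, 0.00931 in mutant 2 and 0.0378 in mutant 3.

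**Figure D2:**
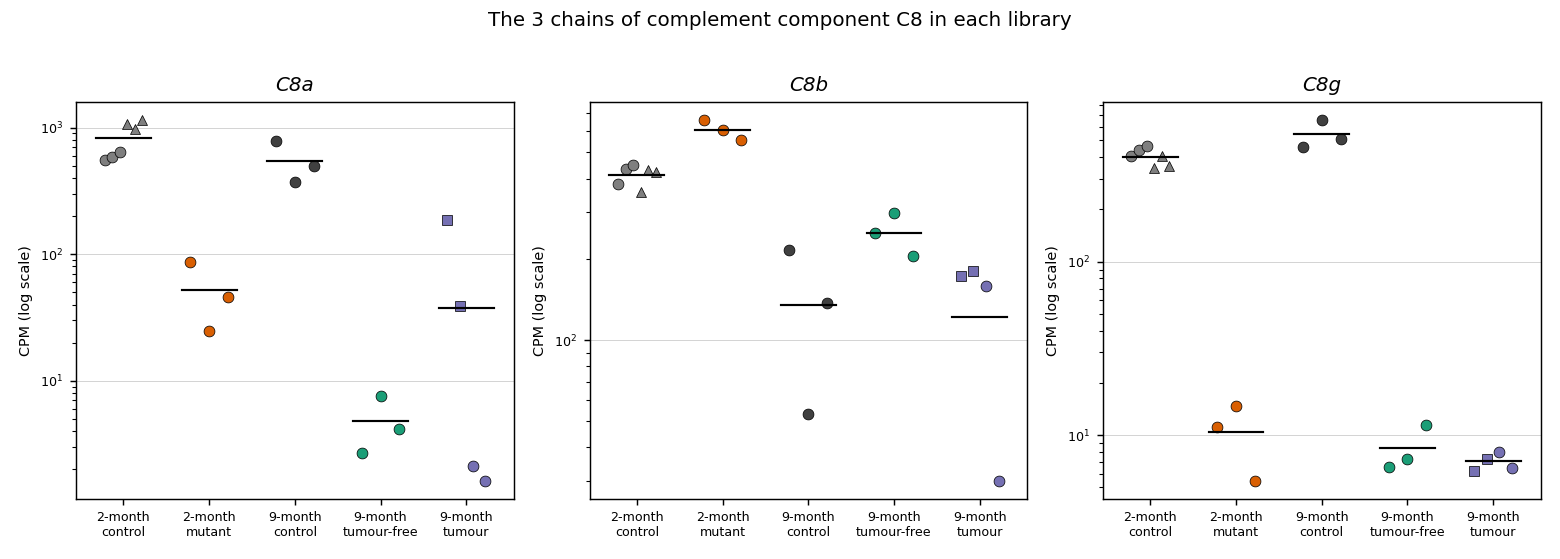
CPM on a log scale of C8a, C8b and C8g in each library; bars are group means over animals, triangles mark 2-month controls 4 to 6 and squares the 2 tumours of mutant 1. C8g is under 15 CPM in every mutant piece and over 344 in every control, C8a is spread from 1.62 to 186 CPM in tumours, and C8b at 2 months is higher in all 3 mutants than in all 6 controls.

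Of the terminal components besides the C8 genes, C9 fell and C6 rose at 2 months and in tumour-free tissue, by less than C8a and C8g fell. C9, the subunit that lines the pore, was at 245, 333 and 224 CPM in 2-month mutants and 512 to 734 in controls. It fell by 1.25 ± 0.15 on the log2 scale at 2 months (adjusted p = 7.59e-05) and by 0.83 ± 0.22 in tumour-free tissue (adjusted p = 0.0209), while the tumour value of -0.89 was not called (adjusted p = 0.159). C6, which binds C5b to start the pore, was at 648, 594 and 464 CPM in mutants and 318 to 492 in controls, a rise of 0.62 ± 0.14 (adjusted p = 0.0048) with overlap through 1 control. This call was lost against controls 1 to 3 alone, in the single fit over all 5 groups, with a replicate block and with a 1.5-fold minimum. In tumour-free tissue C6 was at 233, 227 and 155 CPM against 164, 73.8 and 95.2 in controls, a rise of 0.88 (adjusted p = 0.0495) with overlap. Hc, the mouse gene for C5, was at 775 to 809 CPM in 2-month mutants and 817 to 1074 in controls, and its change of -0.24 was not called (adjusted p = 0.0779). The tumour-free call of C9 was lost without control 1, control 3, or piece 2 or 3, and that of C6 without control 2, control 3, or piece 1 or 2. C9 also lost it with library size alone, and C6 with RLE size factors and in the single fit. Both lost it with a 1.5-fold minimum.

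Genes that start complement split in direction. In 2-month mutants 4 of the 7 fell (C2, C1ra, Mbl1 and Masp2) and 3 rose (C4b, Mbl2 and Masp1). Of all genes 20.4% were lower and 22.3% higher. C2, the protease part of the classical C3 convertase, was at 23.7, 15.6 and 20.4 CPM in mutants and 46.4 to 58.9 in controls. It was 2.64-fold lower on the means (log2 change -1.39 ± 0.14, adjusted p = 1.59e-05), and 2.53-fold lower in tumour-free tissue (-1.35 ± 0.12, adjusted p = 1.12e-04), where the 3 pieces were at 16.8, 15.6 and 18.1 CPM against 44.0, 41.9 and 42.1. In tumours C2 was at 47.7 and 34.9 CPM in mutant 1, 14.4 in mutant 2 and 36.6 in mutant 3, and was not called (-0.50, adjusted p = 0.346).

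C4b, the other part of that convertase, was at 1642, 1635 and 1853 CPM in 2-month mutants and 944 to 1237 CPM in controls, and rose by 0.61 ± 0.10 (adjusted p = 7.2e-04). That call was lost with a replicate block and with a 1.5-fold minimum. The tumour-free C4b values of 1830, 2051 and 1713 CPM were above the controls' 1226, 739 and 1059, a rise of 0.88 ± 0.21 (adjusted p = 0.0117). This rise lost its call without piece 2 and with a 1.5-fold minimum. C4a, a near-identical copy, had 177 to 4641 counts per library, so reads shared between both copies could be split either way. Tumours were at 1074 and 1618 CPM in mutant 1, 2672 in mutant 2 and 1333 in mutant 3, and the change of 0.81 was not called (adjusted p = 0.148).

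The 2 mannose-binding lectins, which recognise sugars, went opposite ways at 2 months. Mbl1 was at 170, 137 and 145 CPM in mutants and 205 to 248 in controls, a fall of 0.54 ± 0.10 (adjusted p = 0.0013). Mbl2 was at 690, 674 and 619 CPM in mutants and 376 to 508 in controls, a rise of 0.56 ± 0.10 (adjusted p = 0.0013). Neither pair of groups overlapped. In tumour-free tissue Mbl1 fell by 0.80 ± 0.14 (adjusted p = 0.0027), while Mbl2 at 706 to 794 CPM against 624 to 677 was not called (0.18, adjusted p = 0.353). The tumour-free call of Mbl1 was lost with library size alone and with a 1.5-fold minimum. In tumours Mbl2 was at 741 and 523 CPM in mutant 1, 363 in mutant 2 and 285 in mutant 3, and Mbl1 at 143, 83.3, 88.5 and 159 CPM in the same order. Neither was called there (-0.63, adjusted p = 0.188 and -0.65, adjusted p = 0.0967).

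Of the lectin proteases, Masp2, which cleaves C4 and C2, fell in all 3 comparisons with controls. It was at 281, 261 and 210 CPM in 2-month mutants against 325 to 405, at 231, 201 and 255 in tumour-free tissue and 183 to 211 in the 4 tumours against 357 to 384 in 9-month controls. None of these groups overlapped. The log2 changes were -0.53 ± 0.12 (adjusted p = 0.0035), -0.70 ± 0.15 (adjusted p = 0.0073) and -0.93 ± 0.19 (adjusted p = 0.0125). The last 2 were lost without tumour-free piece 2 and without 9-month control 3, respectively. Both were also lost with library size alone and with a 1.5-fold minimum, and the tumour call without all 9-month libraries numbered 1. Masp1 was at 279, 222 and 250 CPM in 2-month mutants and 189 to 233 in controls, and its call (0.29, adjusted p = 0.0386) was lost in 13 of 19 alternatives, 7 of which left out a single library (mutant 1 or 3, or any of controls 1 to 5). C1ra, a protease of the C1 complex, fell by 0.68 ± 0.09 at 2 months (121 to 145 CPM against 197 to 224, adjusted p = 1.2e-04). In tumours it was at 72.0 to 90.8 CPM against 104 to 154 (-0.71 ± 0.21, adjusted p = 0.0478), a call lost in 10 of 16 alternatives, among them leaving out control 1, control 3 or any 1 tumour animal.

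C3, the protein on which all complement routes meet, was per kilobase of exon the most abundant of the 39 in every group but the 2-month controls, where the 3 fibrinogen chains were above it. It was at 11210, 10600 and 12510 CPM in 2-month mutants, 9878 to 12750 in controls 1 to 3 and 6733 to 7567 in controls 4 to 6. The mutants were thus above controls 4 to 6 and within the range of controls 1 to 3, and the change of 0.30 ± 0.20 was not called (adjusted p = 0.242). The 9-month changes of 0.57 (adjusted p = 0.127) and 0.82 (adjusted p = 0.203) were not called either, with tumours at 7137 to 16870 CPM. Cfb, the C2-like protease of the alternative route, had group means of 8.24 to 14.2 CPM, and fell at 2 months from 11.9 to 16.1 in controls to 7.98 to 9.95 in mutants (-0.68 ± 0.14, adjusted p = 0.0022).

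Cfd, the protease that cuts Cfb and is best known from fat cells, had few counts in any liver. All 3 2-month mutants together had 1 count and their 6 controls 49, a ratio of 32.3 with a 95% counting interval of 5.53 to 1300, and it was too low to be tested by edgeR. At 9 months controls were at 4.86, 7.19 and 2.37 CPM, 253 counts in all, the 3 tumour-free pieces had 1 count and the tumours none. Controls were therefore 342-fold higher than tumour-free tissue (interval 60.9 to 13600), and the tumours at least 155-fold lower than controls when set at a floor of 3 counts over the group. Both differences were called (adjusted p = 1.76e-04 and 0.0031). These bounds reflect the counting of reads alone, not the spread between animals. The fat cell markers Adipoq, Lep, Plin1 and Retn summed to 0 to 0.655 CPM in 2-month controls and 0.17 to 0.508 in 9-month controls, and to 0, 0 to 0.0774 and 0 to 0.0384 CPM in 2-month mutants, tumour-free tissue and tumours. All 4 were at 0 in 2-month mutants, Lep and Retn in tumour-free tissue, and Lep, Plin1 and Retn in tumours, and their part in the result was not tested. The start of Cfd is shown as that of the member with the largest fall in tumour-free tissue; it held none of the motifs.
Cfd (chr10:79890603-79890902, plus strand): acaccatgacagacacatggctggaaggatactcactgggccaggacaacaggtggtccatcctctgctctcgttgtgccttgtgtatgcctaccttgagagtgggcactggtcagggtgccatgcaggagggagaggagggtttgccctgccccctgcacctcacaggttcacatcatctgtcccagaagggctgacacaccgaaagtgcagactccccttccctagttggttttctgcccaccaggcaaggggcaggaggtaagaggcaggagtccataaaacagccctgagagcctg

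All 3 complement inhibitors fell in 2-month mutants and in tumour-free tissue, beside 20.4% and 16.8% of all genes. Serping1, the C1 inhibitor that also blocks plasma kallikrein and factor XII, was at 646, 630 and 579 CPM in 2-month mutants and 978 to 1216 in controls. At 9 months it was at 1165, 862 and 1140 CPM in controls, 520, 467 and 387 in tumour-free tissue, 352 and 422 in the tumours of mutant 1, 270 in mutant 2 and 261 in mutant 3. No mutant piece reached a control at either age. The changes were -0.80 ± 0.10 (adjusted p = 9.0e-05), -1.21 ± 0.18 (adjusted p = 0.0015) and -1.81 ± 0.27 (adjusted p = 0.0046), and all held under every alternative.

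C4bp, which disables C4b, fell by 0.42 ± 0.09 at 2 months (548 to 567.7 CPM against 710 to 872, adjusted p = 0.0038) and by 0.80 ± 0.15 in tumour-free tissue (426 to 488 against 711 to 864, adjusted p = 0.0042). Both calls were lost with library size alone and with a 1.5-fold minimum, and the first also with a replicate block. Cfi, the protease that cleaves C3b and C4b, was at 560 to 578 CPM in 2-month mutants and 723 to 1120 in controls, a fall of 0.67 ± 0.15 (adjusted p = 0.0039). Its tumour-free fall of 0.62 (adjusted p = 0.0301) was lost in 9 of 15 alternatives, among them leaving out control 1, control 3 or any of the 3 tumour-free pieces. In tumours Cfi was at 601 and 612 CPM in mutant 1, 666 in mutant 3 and 1185 in mutant 2, against 573 to 839 in controls (0.19, adjusted p = 0.702). C4bp was not called in tumours (-0.77, adjusted p = 0.0919).

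The contact system, in which factor XII and plasma kallikrein activate each other on a surface with the help of kininogen, also split. F11 and Klkb1, neighbours 4657 bases apart on chromosome 8, were the clotting genes that fell most in 2-month mutants and in tumour-free tissue, while kininogen rose at 2 months. F11 (chr8:45241174-45262031, minus strand), which activates factor IX, was at 32.7, 19.5 and 20.7 CPM in 2-month mutants, 71.9 to 123 in controls 1 to 3 and 123 to 156 in controls 4 to 6. It was 4.87-fold lower on the means (log2 change -2.28 ± 0.30, adjusted p = 1.7e-04), and in tumour-free tissue, at 20.6, 24.2 and 25.9 CPM against 94.4, 52.6 and 90.3, 3.36-fold lower (-1.75 ± 0.23, adjusted p = 6.6e-04). The tumours were at 23.5 and 16.7 CPM in mutant 1, 87.8 in mutant 2 and 52.1 in mutant 3. One tumour of mutant 1 lay within the range of the tumour-free pieces and the other below it, that of mutant 2 lay within the range of the controls, and no change was called (-0.59, adjusted p = 0.448).

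Klkb1 (chr8:45266689-45294859, minus strand), prekallikrein, was at 129, 66.1 and 61.6 CPM in 2-month mutants and 242 to 317 in controls. At 9 months controls were at 308, 316 and 319 CPM, tumour-free pieces at 92.9, 94.3 and 86.8, and tumours at 47.0 and 58.9 in mutant 1, 108 in mutant 2 and 114 in mutant 3. Every mutant piece was below every control. The changes were -1.73 ± 0.23 (adjusted p = 1.3e-04), -1.79 ± 0.13 (adjusted p = 4.11e-05) and -1.79 ± 0.31 (adjusted p = 0.0077), all called under every alternative. A listed gene that overlaps Klkb1 had 2 counts in all libraries together.

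Kng1 (chr16:23057865-23082078, plus strand), kininogen, had 4133, 3771 and 3546 CPM in 2-month mutants and 2259 to 2644 in controls, a rise of 0.67 ± 0.09 (adjusted p = 1.85e-04). Its tumour-free values of 2711 to 3006 CPM were above the 9-month controls at 2045 to 2334, but the change of 0.40 was not called (adjusted p = 0.0637). Kng2, a related gene that shares sequence with Kng1, had 3167 to 11696 counts per library and rose at 2 months by 1.03 ± 0.12 (adjusted p = 3.42e-05). F12, factor XII, fell at 2 months from 527 to 713 CPM in controls to 379 to 473 in mutants (-0.46 ± 0.12, adjusted p = 0.0101). That call was lost against controls 4 to 6 alone, with library size alone, in the single fit and with a 1.5-fold minimum. F12 was not called in tumour-free tissue (-0.08, adjusted p = 0.784) or in tumours (-0.54, adjusted p = 0.23).

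**Figure D3:**
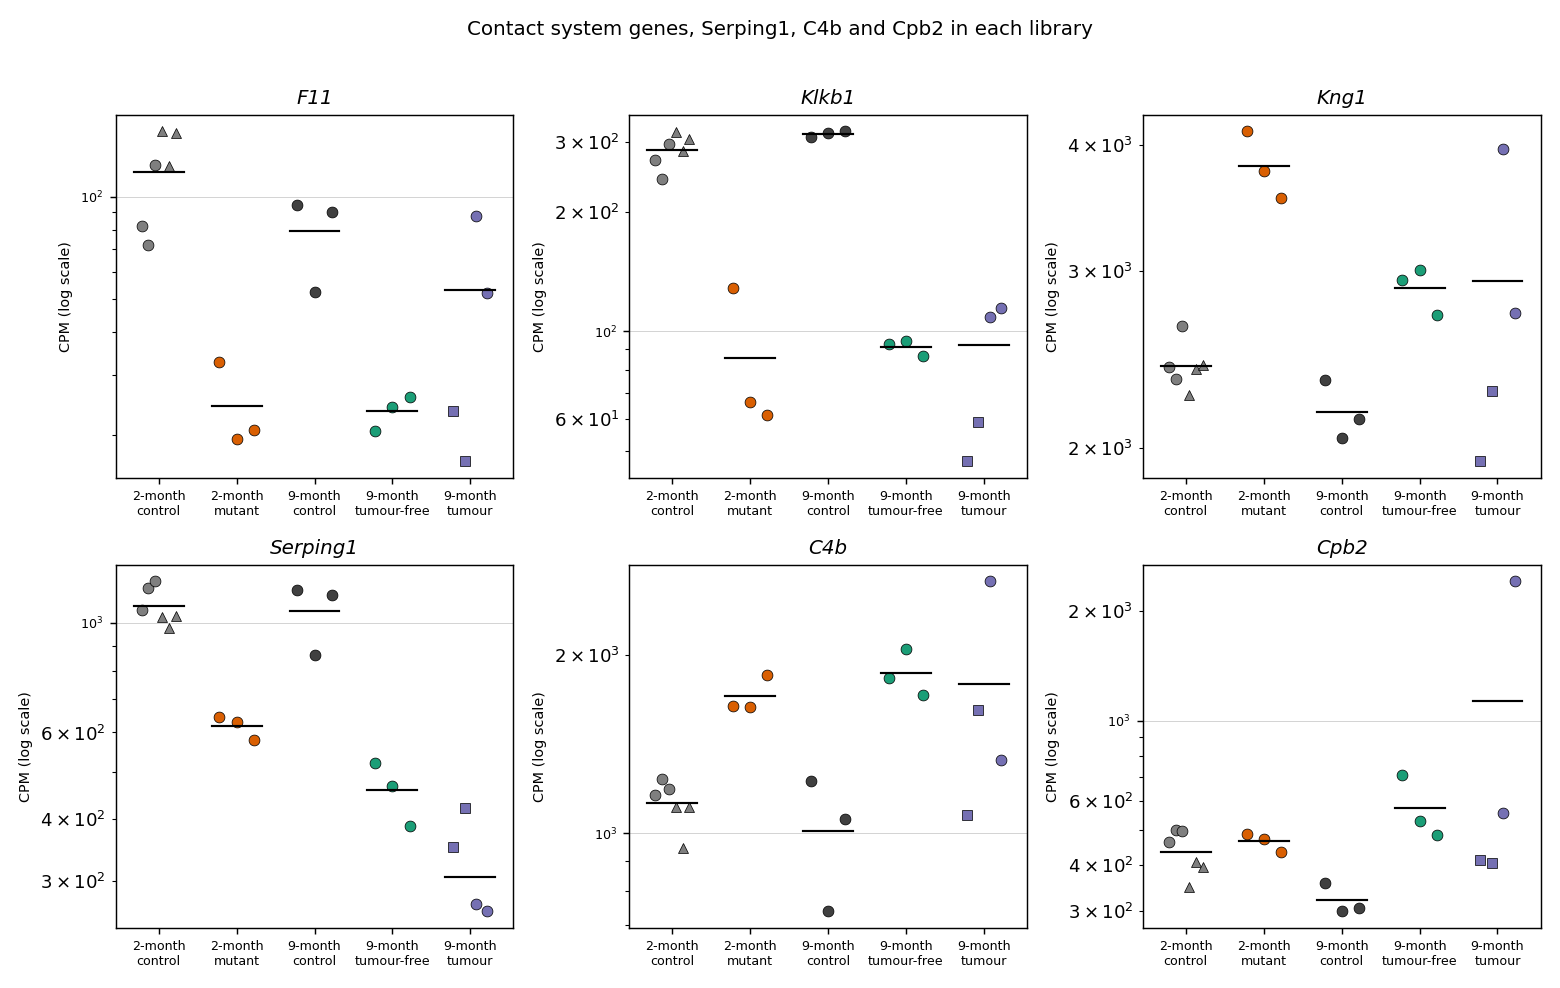
CPM on a log scale of F11, Klkb1, Kng1, Serping1, C4b and Cpb2 in each library; bars are group means over animals, triangles mark 2-month controls 4 to 6 and squares the 2 tumours of mutant 1. Klkb1 and Serping1 lie below the controls in every mutant piece, Kng1 and C4b lie above them in all 2-month mutants and tumour-free pieces, and 1 tumour reaches 2421 CPM of Cpb2.

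Among the proteases that lead to thrombin, F10, F2, F7 and F9 fell at 2 months and F5, the cofactor of factor X, rose. Of all genes 20.4% were lower and 22.3% higher. F10, whose active form cuts prothrombin, was at 277, 292 and 236 CPM in mutants and 503 to 548 in controls (-0.95 ± 0.09, adjusted p = 1.38e-05). F2, prothrombin itself, was at 1254, 1228 and 1019 CPM in mutants and 1948 to 2539 in controls (-0.89 ± 0.13, adjusted p = 1.9e-04). F7, the partner of tissue factor, fell by 0.76 ± 0.08 (64.3 to 73.8 CPM against 111 to 126, adjusted p = 2.5e-05). F5 was at 827, 785 and 766 CPM in mutants and 451 to 617 in controls, a rise of 0.51 ± 0.11 (adjusted p = 0.0031). F9, whose product activates factor X, changed by -0.33 (adjusted p = 0.0236). That call was lost in 7 of 19 alternatives, among them library size alone, controls 4 to 6 alone, and without mutant 2 or 3.

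In tumour-free tissue F2, F9 and F10 fell, beside 16.8% of all genes, and F5 and F7 were not called. F2 was at 1214, 1205 and 1172 CPM against 2237, 1773 and 2287 in controls (-0.82 ± 0.16, adjusted p = 0.0051). F9 was at 160, 152 and 123 CPM against 282, 211 and 272 (-0.82 ± 0.17, adjusted p = 0.0070), and F10 fell by 0.64 ± 0.14 (adjusted p = 0.0097). The calls of F2, F9 and F10 were lost with library size alone and with a 1.5-fold minimum. That of F10 was also lost without tumour-free piece 2 and without all 9-month libraries numbered 1. F5 was at 664, 671 and 499 CPM against 542, 361 and 528, and these overlapped (0.35, adjusted p = 0.214). In tumours none of the 5 was called, beside 25.1% of all genes. F10 at 278 to 349 CPM against 462 to 518 came nearest (-0.63, adjusted p = 0.0515).

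The 6 vitamin K dependent genes, whose proteins need carboxylated glutamates to bind membranes, are F2, F7, F9, F10, Proc and Pros1. At 2 months 5 of them fell, beside 20.4% of all genes, and Pros1 was not called (-0.08, adjusted p = 0.696). In tumour-free tissue 5 fell, beside 16.8% of all genes, and F7 was not called (-0.38, adjusted p = 0.168). Their median log2 change was -0.78, -0.64 and -0.56 at 2 months, in tumour-free tissue and in tumours. None was called in tumours, beside 25.1% of all genes. Of 4 genes of the vitamin K cycle, Vkorc1, the epoxide reductase that recycles vitamin K, fell in each comparison with controls (-0.61 ± 0.11, adjusted p = 9.2e-04, then -0.87 ± 0.17, adjusted p = 0.0049, and -0.76 ± 0.18, adjusted p = 0.0234), and Vkorc1l1 rose at 2 months (0.65 ± 0.14, adjusted p = 0.0034). Of all genes 42.7%, 34.9% and 25.1% were called at 2 months, in tumour-free tissue and in tumours.

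The fibrinogen genes Fgg, Fga and Fgb lie side by side on chromosome 3 (chr3:83007724-83049863) and encode the 3 chains of the clot protein. In each group they held 3 of the 4 highest levels per kilobase of exon among the 39. The starts of Fga and Fgb are shown because these neighbours had a similar pattern across samples and their windows hold 3 of the motifs searched. In Fga capitals mark the reverse complements of TTGCNNAA (C/EBP) and GTTAATNAT (HNF1). In Fgb they mark TTGCNNAA itself and TGANTCA (AP-1). The RefSeq start of Fga lies 77 bases downstream of the GENCODE one.
Fga (chr3:83025903-83026202, plus strand): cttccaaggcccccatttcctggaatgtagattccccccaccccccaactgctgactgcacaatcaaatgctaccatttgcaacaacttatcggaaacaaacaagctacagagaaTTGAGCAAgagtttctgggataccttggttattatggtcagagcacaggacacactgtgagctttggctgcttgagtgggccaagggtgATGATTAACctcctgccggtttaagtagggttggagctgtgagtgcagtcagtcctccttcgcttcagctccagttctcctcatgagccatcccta
Fgb (chr3:83049814-83050113, minus strand): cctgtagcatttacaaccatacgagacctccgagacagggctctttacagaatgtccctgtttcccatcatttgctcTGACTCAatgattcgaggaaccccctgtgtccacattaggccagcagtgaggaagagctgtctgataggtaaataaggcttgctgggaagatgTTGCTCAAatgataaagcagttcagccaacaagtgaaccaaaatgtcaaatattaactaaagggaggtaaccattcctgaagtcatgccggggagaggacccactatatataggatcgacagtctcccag

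Fga was at 12040, 11850 and 11580 CPM in 2-month controls 1 to 3, 6641, 6833 and 6428 in controls 4 to 6, and 5228, 5141 and 5130 in mutants. The mutants were below both sets of controls, but the 2 sets of controls differed by 0.80 on the log2 scale, nearly as much as mutants and controls did (-0.83 ± 0.24, adjusted p = 0.0167). Against controls 1 to 3 alone the change was -1.19, and against controls 4 to 6 alone -0.36, called in both. Leaving out mutant 2 or mutant 3 ended the call, at -0.82 each time. Library size alone and a 1.5-fold minimum ended it too. Fgg, at 3199 to 3600 CPM in mutants, 6935 to 7960 in controls 1 to 3 and 4261 to 4936 in controls 4 to 6, fell by 0.81 ± 0.21 (adjusted p = 0.011). Fgb, at 4817 to 5622 CPM in mutants, overlapped controls 4 to 6 at 5062 to 5770 and lay below controls 1 to 3 at 9285 to 9616. It was not called (-0.52 ± 0.24, adjusted p = 0.0981), although it was called against controls 1 to 3 alone (-0.89).

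At 9 months no fibrinogen chain was called against controls. Fga was at 4340, 2153 and 3390 CPM in controls, 4378, 3867 and 2820 in tumour-free tissue, and 3365, 4386, 5139 and 2604 in the tumours of mutants 1 (2 tumours), 2 and 3. The groups overlapped throughout, with changes of 0.16 (adjusted p = 0.688) and 0.22 (adjusted p = 0.708). Fgb and Fgg gave 0.34 and 0.14 in tumour-free tissue and 0.46 and 0.12 in tumours. The difference between the 9-month and 2-month effects was 1.00 ± 0.39 for Fga, 0.87 ± 0.35 for Fgb and 0.95 ± 0.33 for Fgg, none called (adjusted p = 0.264, 0.298 and 0.188). F13b, the carrier subunit of the factor that crosslinks fibrin, fell at 2 months (180 to 211 CPM against 213 to 309, -0.47, adjusted p = 0.0141). That call was lost in 6 of 19 alternatives, among them library size alone, controls 4 to 6 alone, and without mutant 2 or 3.

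**Figure D4:**
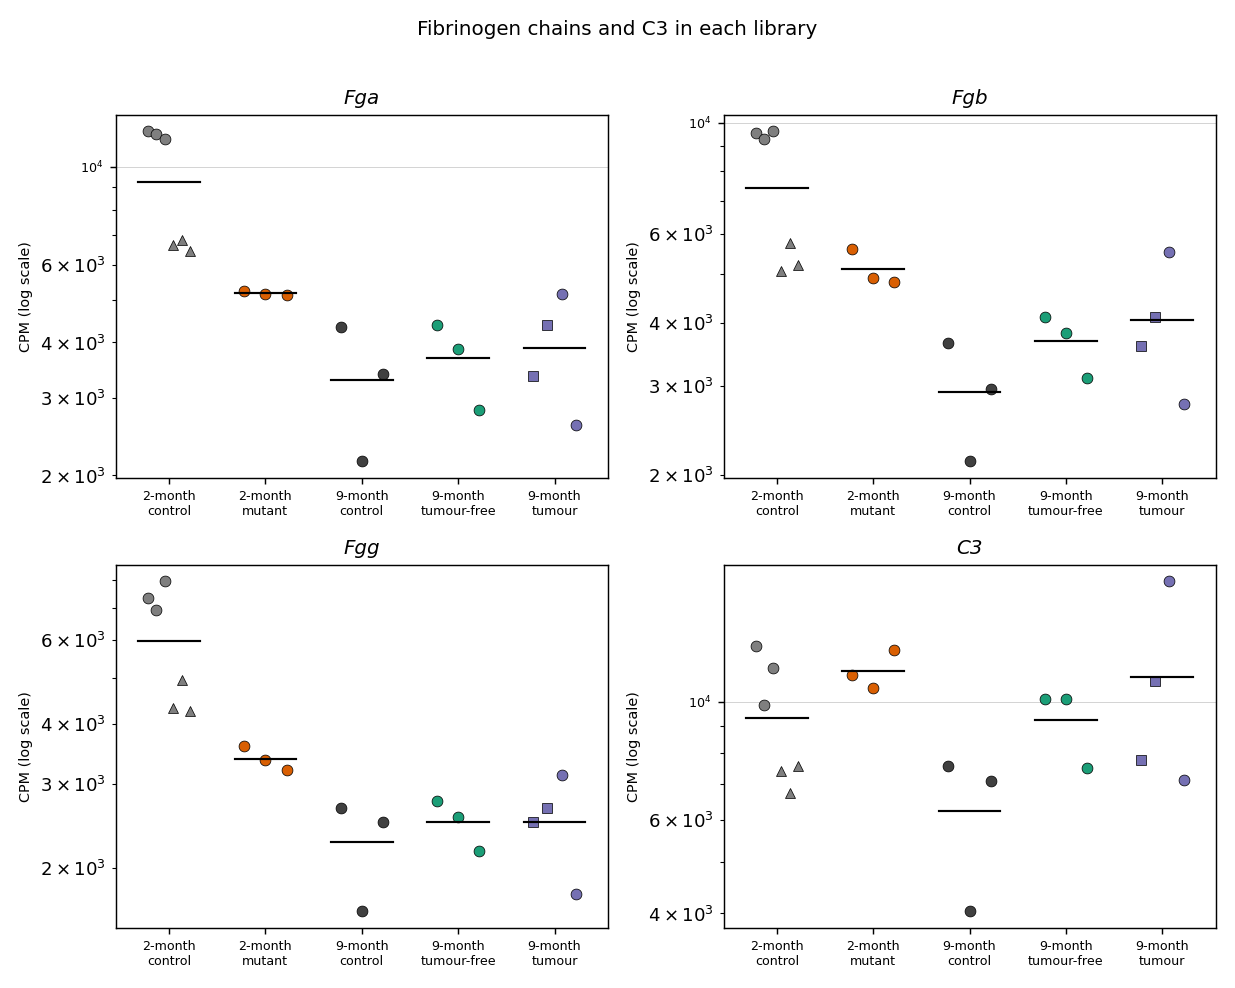
CPM on a log scale of Fga, Fgb, Fgg and C3 in each library; bars are group means over animals, triangles mark 2-month controls 4 to 6 and squares the 2 tumours of mutant 1. For all 4 genes the 2-month controls fall into an upper set (1 to 3, Fga at 11580 to 12040 CPM) and a lower set (4 to 6, Fga at 6428 to 6833 CPM).

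Of the 4 natural anticoagulants, 3 fell at 2 months (all but Pros1) and 3 in tumour-free tissue (all but Serpinc1). In the same order 20.4% and 16.8% of all genes fell. Serpind1, heparin cofactor II, was at 322, 307 and 239 CPM in 2-month mutants and 621 or more in every control (-1.29 ± 0.13, adjusted p = 1.75e-05). In tumour-free tissue it was at 264, 257 and 202 CPM against 685, 447 and 669 (-1.32 ± 0.21, adjusted p = 0.0017). Both calls held under every alternative. Proc, protein C, which inactivates factors V and VIII, fell by 0.80 ± 0.12 (322 to 460 CPM against 631 to 753, adjusted p = 3.4e-04) and by 0.63 ± 0.16 (379 to 486 against 635 to 709, adjusted p = 0.0146). The second call was lost without control 3, without tumour-free piece 2, with library size alone and with a 1.5-fold minimum.

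Serpinc1, antithrombin, the main inhibitor of thrombin and factor X, was at 2232, 2189 and 1985 CPM in 2-month mutants and 2522 to 3047 in controls (-0.37 ± 0.10, adjusted p = 0.0119). It lost its call against controls 1 to 3 alone, with library size alone, with a replicate block and with a 1.5-fold minimum. In tumour-free tissue it was at 1893 to 2095 CPM against 2379 to 2612 and was not called (-0.33, adjusted p = 0.116). Pros1, the cofactor of protein C, was at 49.7, 38.4 and 31.96 CPM in tumour-free tissue against 71.0, 51.4 and 58.7 (-0.60, adjusted p = 0.0414). That call was lost in 7 of 15 alternatives, among them without control 1 or 3 and without piece 2 or 3. None of the 4 anticoagulant genes was called in tumours, beside 25.1% of all genes, and their median log2 change there was -0.49.

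In fibrinolysis, Plg, plasminogen, fell at 2 months from 3237 to 3955 CPM in controls to 2621, 2172 and 2069 in mutants (-0.63 ± 0.12, adjusted p = 0.0012). In tumour-free tissue it was at 1268 to 1762 CPM against 1754 to 2868, and was not called (-0.61, adjusted p = 0.0665). Serpinf2, the plasmin inhibitor, fell at 2 months (623 to 734 CPM against 1014 to 1320, -0.74 ± 0.11, adjusted p = 3.1e-04). Cpb2, which trims fibrin so that plasminogen binds it less, went the other way at 9 months. It was at 711, 529 and 485 CPM in tumour-free tissue and 358, 299 and 304 in controls, a rise of 0.84 ± 0.18 (adjusted p = 0.0090) without overlap. That call was lost in the single fit over all 5 groups and with a 1.5-fold minimum. In tumours Cpb2 was at 414 and 406 CPM in mutant 1, 556 in mutant 2 and 2421 in mutant 3, all above the controls, and with this spread not called (1.80 ± 0.68, adjusted p = 0.0978). Without mutant 3 the tumour value was 0.60. At 2 months mutants at 435 to 489 CPM lay within the controls' 349 to 500 (0.10, adjusted p = 0.517).

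Tumours and tumour-free tissue came from the same 3 animals, and none of the 38 members tested was called between them, against 0.0137% of all 14566 genes. The main test did not pair the pieces by animal. In simulated data for this comparison edgeR found 3% of 2-fold and 82% of 4-fold changes, so 2-fold differences could be missed. At an unadjusted p under 0.05 edgeR gave 5 members (C6, Cfi, Mbl2, Serpind1 and Serping1), and the share of all genes was not computed. After adjustment DESeq2 called 1 member, beside 3.03% of all genes, and limma voom none, beside 0%. C6, the member DESeq2 called, was at 92.3 and 115 CPM in the tumours of mutant 1, 25.7 in mutant 2 and 32.2 in mutant 3, all below the tumour-free pieces at 233, 227 and 155 (-1.93 ± 0.57, adjusted p = 0.354). Without mutant 1's tumours edgeR called C6 too, at -2.84. Cfi (0.82, adjusted p = 0.45) and Serpind1 (0.61, adjusted p = 0.458) had positive values, neither called. The largest value was that of C8a (2.98 ± 1.63, adjusted p = 0.622), which turned to -1.36 without the tumours of mutant 1.

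Controls themselves differed between the 2 ages and runs, where 12 of 39 members were lower and 2 higher at 9 months, against 11.9% of all 13545 genes. C6 fell most, from 318 to 492 CPM to 164, 73.8 and 95.2 (-1.76 ± 0.24, adjusted p = 9.2e-04). The fibrinogen genes fell by 1.496 ± 0.30 (Fga, adjusted p = 0.0097), 1.36 ± 0.27 (Fgb, adjusted p = 0.0097) and 1.41 ± 0.25 (Fgg, adjusted p = 0.0048), and C8b by 1.61 ± 0.34 (adjusted p = 0.0152). The C8b call was lost in 5 of 19 alternatives, among them either set of 2-month controls alone and without 9-month control 3. Mbl2 rose from 376 to 508 CPM to 624 to 677 (0.50 ± 0.11, adjusted p = 0.0124), a call lost in 3 of 19 alternatives, among them controls 1 to 3 alone. Cfd rose from 49 counts in 6 libraries to 253 in 3 (adjusted p = 0.0121). The other members called lower were F12, C1ra, C9, Serpinf2, Plg, Hc and Cpb2. Against 2-month controls 1 to 3 alone 7 members were called, beside 4.23% of all genes, and against controls 4 to 6 alone 10, beside 8.16%. Leaving out 9-month control 2, the lowest control of C6, C8b, Hc, C3 and all 3 fibrinogen genes, left 6 calls, beside 5.83% of all genes. Fga, Fgb, Cfd, C9, Hc, Plg, Serpinf2 and Cpb2 were not among them. Leaving out 9-month control 3 left 9 calls, beside 6.71% of all genes.

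Together the 39 genes took 5.03% ± 0.78 (SD, n = 6) of all counts in 2-month controls, 4.86% ± 0.33 (n = 3) in 2-month mutants, 3.09% ± 0.51 (n = 3) in 9-month controls, 4.20% ± 0.37 (n = 3) in tumour-free tissue and 4.61% ± 1.29 (n = 3) in tumours. C3 and the fibrinogen genes made up most of the differences: the other 35 took 2.25%, 2.19%, 1.84%, 2.00% and 2.07% in the same order. The terminal pathway took 0.315% in 2-month controls and 0.244% in mutants, and 0.205%, 0.149% and 0.119% in 9-month controls, tumour-free tissue and tumours. The contact system, led by Kng1, took 0.30% and 0.464% at 2 months, and 0.253%, 0.389% and 0.39% at 9 months. These shares are of raw counts, unlike the TMM-scaled changes, and were not tested.

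**Figure D5:**
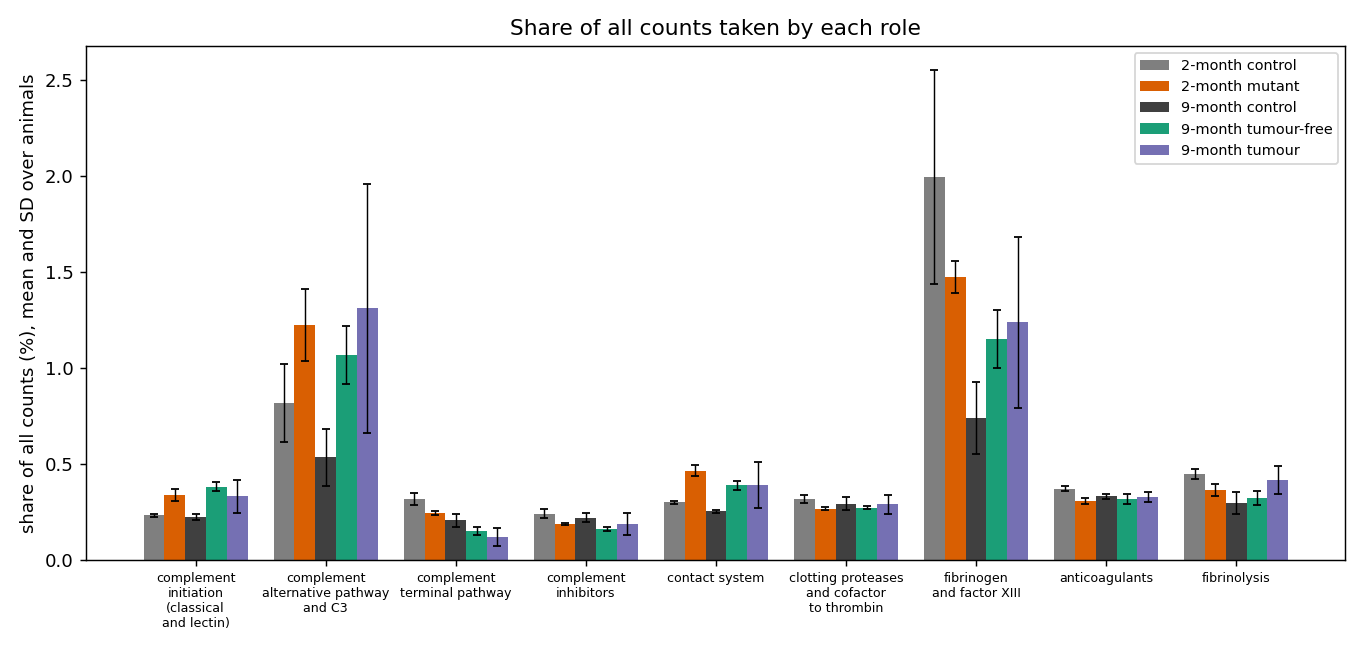
Share of all counts (%, mean and SD over animals) taken by the members of each role in the 5 groups. Fibrinogen and C3 account for the tallest bars, and fibrinogen with factor XIII goes from 1.99% in 2-month controls to 0.739% in 9-month controls.

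Other genes of the same pathways, from lists that hold none of the 39, moved in both directions. Of all genes tested, 42.7% were called at 2 months, 34.9% in tumour-free tissue and 25.1% in tumours. Of 16 other secreted complement genes tested at 2 months 8 rose and 5 fell (median log2 change 0.37), and Vtn, which blocks the terminal complex, fell by 1.37 ± 0.14 (adjusted p = 1.5e-05). The C1q genes, which are made by macrophages, rose at 2 months and in tumour-free tissue, for C1qb by 0.67 ± 0.20 (adjusted p = 0.0181) and 1.01 ± 0.20 (adjusted p = 0.0049), and in tumours by 1.14 ± 0.25 (adjusted p = 0.0184). Of 11 complement receptors and membrane regulators 4 rose and 1 fell at 2 months (median 0.38), near the 42.7% of all genes called. In tumour-free tissue 4 rose and 4 fell, beside 34.9% of all genes. Itgax, a chain of complement receptor 4 on myeloid cells, rose by 1.99 ± 0.49 at 2 months (adjusted p = 0.0073). The 8 macrophage markers summed to 295 to 602 CPM in 2-month controls, 536 to 813 in mutants, 242 to 300 in 9-month controls, 465 to 522 in tumour-free tissue and 251 to 495 in tumours, none at 0 in any group, and their part in these rises was not tested.

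Of 17 other clotting genes tested at 2 months 7 rose and 3 fell (median log2 change 0.32), beside 42.7% of all genes called. In tumour-free tissue 7 of 18 rose and 3 fell, beside 34.9%. F2rl1 and F2r, the protease-activated receptors 2 and 1, rose by 4.02 ± 0.40 (adjusted p = 1.52e-05) and 1.74 ± 0.18 (adjusted p = 1.89e-05) at 2 months and by 5.03 ± 0.57 (adjusted p = 3.3e-04) and 2.38 ± 0.19 (adjusted p = 6.13e-05) in tumour-free tissue. F2rl1 stood at 0.49 CPM in 2-month controls and 8.08 in mutants. Of 9 other fibrinolysis genes 5 rose and 1 fell at 2 months (median 1.79), 3 rose in tumour-free tissue and 4 in tumours. The shares of all genes called were 42.7%, 34.9% and 25.1%, and the tumour-free count was near its share. Anxa2, a cell surface anchor of plasminogen, rose from 15.9 ± 2.49 (n = 6) to 191 ± 27.4 CPM (n = 3) at 2 months (3.59 ± 0.13, adjusted p = 8.73e-09), and Plat, the tissue plasminogen activator, rose by 2.75 ± 0.53 (adjusted p = 0.0018), 3.08 ± 0.53 (adjusted p = 0.0029) and 3.94 ± 0.64 (adjusted p = 0.0070) in the 3 comparisons with controls. Tumour-free tissue and tumours share the 9-month controls.

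Of 13 transcription factors and receptors known to act on genes of secreted liver proteins, none rose in these 3 comparisons. Of all genes 22.3%, 18.1% and 13.8% rose at 2 months, in tumour-free tissue and in tumours. In the same order 3, 1 and 2 of the 13 fell, beside 20.4%, 16.8% and 11.3% of all genes. Nr1h4, the bile acid receptor FXR, fell in each (-0.44 ± 0.13, adjusted p = 0.0156, then -0.64 ± 0.14, adjusted p = 0.0085, and -1.33 ± 0.21, adjusted p = 0.0056). Stat3 and Onecut1 fell at 2 months (-0.40 ± 0.13, adjusted p = 0.0296 and -2.52 ± 0.90, adjusted p = 0.0469) and Cebpb in tumours (-1.47 ± 0.39, adjusted p = 0.0325). Cebpb was not called at 2 months or in tumour-free tissue. It was called higher in the 9-month controls, against which tumours were compared, than in the 2-month controls.

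Promoter windows (RefSeq, GRCm38.p6) were matched for 30 of the 39 members. TGANTCA, the AP-1 motif, stood on either strand in 2 of the 30 (F2 and Fgb, 6.67%) and in 7.81% of all 32851 windows. TGACGTCA, the cyclic AMP response element, stood in 1 (Cpb2, 3.33%) against 1.79%. TTGCNNAA, part of the C/EBP motif, stood in 10 (33.3%) against 10.8% of all windows, namely C1ra, C3, C9, Cpb2, F9, F11, Fga, Fgb, Klkb1 and Serpinc1. GTTAATNAT, part of the HNF1 motif, stood in 4 (C4bp, F13b, Fga and Hc, 13.3%) against 0.801%. No match overlapped a match of another motif in these windows. These matches describe letters in 300 bases and were not related to any change.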

How the data were processed

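The authors deposited 1 table of whole-number counts per gene and library, and these counts were used as deposited. Per the submitters' processing notes the tools were bedtools 2.27.1, DESeq2 1.22.2, RSEM and STAR 2.6.1a and the builds mm10 and GRCm38, with no role or order for any tool. As RSEM is listed, the counts may be rounded estimates, and whether counting used the strand of the stranded kit is not given in the sources used here. Gm20547, which overlaps Cfb and C2 on the same strand, had 0 counts.

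The 39 genes, the other gene lists and the comparisons were chosen with earlier results of these data known. The libraries of each comparison were fitted alone in edgeR 4.0.16 (R 4.3.3): its expression filter, TMM scaling, robust quasi-likelihood fit, and Benjamini-Hochberg adjusted p under 0.05 over all genes tested. Changes are log2 with the fitted standard error. Levels are CPM with TMM factors over all 19 libraries, as mean ± SD over animals, and per kilobase of GENCODE M21 exons where genes are compared. Cfd was not tested at 2 months or between tumour and tumour-free tissue, because it did not pass the filter. In simulated data with 100 genes changed 2-fold and 100 changed 4-fold, edgeR found 89% and 99% at 2 months, 55% and 96% in tumour-free tissue, and 13% and 84% in tumours. Between tumours and tumour-free tissue it found 3% and 82%. All other genes were left unchanged, and edgeR called 105 genes in the simulated tumour comparison against 3593 in the real one. Between tumours and tumour-free tissue it called 90 against 2. The adjusted threshold depends on how many genes change, so these shares do not measure sensitivity in the real data.

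Named genes are all members called in a comparison, the 3 largest rises and falls, and up to 3 genes of smallest adjusted p from each other list. Promoters of C8g and Cfd follow a rule of largest falls, and those of C8a, C8b, Fga and Fgb were chosen after their values were seen. Alternatives were DESeq2 1.42.0, limma 3.58.1 (voom), other scalings, no expression filter, a 1.5-fold minimum, 1 fit over all groups, a replicate block, and leaving out libraries. Tumour and tumour-free pieces with the same number come from the same animal, with correlations of 0.033 to 0.307 between their deviations from the group means, and are paired by the labels.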

Additional observations from a re-analysis of the deposited data

Results flagged for a closer look

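In 7 of 78 sets of libraries 1 value stood far from the others of its group by Dixon's test, where chance gives about 3.9 (1 in 20). The 2 tumours of mutant 1 entered this test as separate libraries, so the tumour group had 4 libraries from 3 animals. In the tumour of mutant 3, C8b was lowest at 30.07 CPM, C1ra was lowest at 72.04 CPM and Cpb2 was highest at 2421 CPM. In the tumour of mutant 2, Cfi was highest at 1185 CPM. In 2-month control 3, C6 was highest at 492.2 CPM, Proc at 752.9 CPM and Serpinf2 at 1320 CPM.

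The mutant effect on C8a differed between ages by the interaction test: the effect in tumour-free tissue at 9 months minus that at 2 months was -2.85 on the log2 scale (edgeR, adjusted p = 0.0375), with C8a lower than in all controls in 3 of 3 mutants at each age. The call was lost in 18 of 26 alternatives.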

How the results depend on the processing

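Counts of called members are given here where they moved by over 1.5 times. A 1.5-fold minimum left 11 of 33 for 2-month mutants, 8 of 21 for tumour-free tissue and 3 of 14 between control ages. Of all genes it left 15.8%, 17.1% and 1.97% called in the same order. In tumours, with 6, DESeq2 called 13 and the single fit over all 5 groups 22, beside 31.2% and 43.6% of all genes. Between tumour and tumour-free tissue both called 1 instead of 0, beside 3.03% and 2.51%. Between control ages the single fit called 9, beside 6.96% of all genes. Against controls 1 to 3 alone, a choice made after seeing the data, 7 were called, beside 4.23%. The change of the mutant effect with time, with 1, became 2 with DESeq2 and against controls 1 to 3 alone, beside 3.56% and 0.868% of all genes. It became 0 with voom, with no expression filter, in the single fit, with a 1.5-fold minimum, against controls 4 to 6 alone, without all 9-month libraries numbered 1, and with a replicate block. Those fits called between 0.356% and 1.64% of all genes.

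Leaving out 1 animal at a time gave 29 to 33 calls at 2 months, 13 to 24 in tumour-free tissue, 4 to 10 in tumours, 0 to 1 between tumour and tumour-free tissue, 6 to 17 between control ages and 0 to 1 for the change with time. In the same order these fits called 31.1% to 42.2%, 22.9% to 32.9%, 9.55% to 24.1%, 0% to 0.425%, 5.83% to 13.8% and 0.727% to 1.95% of all genes. The tumour to tumour-free value of C8a turned from 2.98 to -1.65 without all 9-month libraries numbered 1. Leaving out 1 animal, it ranged from -1.36 (without mutant 1's tumours) to 3.53, and that of Cpb2, 0.96, from -0.27 (without mutant 3's tumour) to 1.36. None was called, and the cause was not tested. With a replicate block, paired by animal, tumour against tumour-free tissue still gave 0 members. In the other comparisons samples share only a number (correlations of -0.222 to 0.239 at 2 months and -0.032 to 0.309 at 9 months), and the block gave 28 calls at 2 months, 20 in tumour-free tissue and 6 in tumours. Of all genes the block called 23.9%, 35.5% and 19% in the same order. Calls that held under every alternative numbered 11 of 33 for 2-month mutants, 8 of 21 for tumour-free tissue, 4 of 6 for tumours and 2 of 14 between control ages. In simulated tumour data with 14332 genes edgeR found 13% of 2-fold changes, so changes of that size could be missed. That share need not hold in the real data, where 3593 genes were called instead of 105.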
